A study of Homo sapiens with 21 samples.

Results

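Cytosolic translation factors are the proteins that start and extend every polypeptide chain, and 44 genes for them were followed in MV4-11 cells treated with ironomycin. The genes were chosen by name: each is a row of the count table whose Ensembl identifier maps to one of 44 listed symbols for initiation and elongation factors. All 44 were found among 54042 genes, as 3 eIF1 factors, 3 subunits of eIF2, EIF2A, 5 subunits of eIF2B, 13 of eIF3, 10 genes of the eIF4 group, 4 genes of eIF5 and eIF6, and 5 elongation factors. The rule itself uses no measured value. Of the 44, 43 had enough counts to be tested, and EEF1G, with 4 counts over all 21 libraries, did not.

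MV4-11 is an established human line from an acute leukaemia that carries both myelomonocytic and B-cell traits. Ironomycin, which the labels also call AM5, is a small molecule derived from salinomycin, and the title of the series concerns mitochondrial iron. Wild type cells received the solvent DMSO, ironomycin for 6 h, or ironomycin for 24 h. Cells with a CRISPR knockout of HK2, a hexokinase, and cells with a CRISPR knockout of PGP, a phosphoglycolate phosphatase, each received DMSO or ironomycin for 24 h. This gives 7 groups of 3 libraries. The labels give no dose, no time for DMSO, and no word on whether a knockout was 1 clone or a pool. Time in culture and ironomycin therefore cannot be told apart in any comparison with DMSO, and no DMSO libraries are matched to the step from 6 h to 24 h. Whether replicates were separate cultures is not stated either. The p-values then cover only the spread among these libraries, which may be technical.

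Initiation begins when eIF2, carrying GTP, brings the initiator tRNA to the small ribosomal subunit, where EIF1, EIF1AX, eIF3 and EIF5 help it to find the start codon. The mRNA arrives through the eIF4 group: EIF4E holds the cap, EIF4G1 is the scaffold, and the EIF4A helicases unwind the leader. EIF5 triggers GTP hydrolysis on eIF2, EIF5B joins the large subunit, and eIF2B reloads eIF2 with GTP. Stress kinases phosphorylate the alpha subunit of eIF2, encoded by EIF2S1, which blocks eIF2B, and MTOR signalling frees EIF4E from its binding proteins. Elongation then runs on EEF1A1, which delivers aminoacyl-tRNA, the exchange factors EEF1B2, EEF1D and EEF1G, and EEF2, which moves the ribosome along. The data below are transcript levels. They hold no measure of protein, phosphorylation or translation rate.

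Total counts lay between 3829274 and 6069264 per library, with a median of 4823817. Levels are CPM, counts scaled to a common library total. The library of replicate 2 at 6 h stood apart, with an SD of 0.675 against 0.332 to 0.480 in the others. This is the SD, over all genes tested, of a library's log2 differences from the mean of its group's other libraries. In replicate 2 at 6 h the 43 factors lay at a median of -0.09 (log2) from the mean of replicates 1 and 3. EIF4H lay at -2.62, EIF3M at -1.47 and EIF4A3 at -1.33. The line's markers FLT3 (173 to 475 CPM), CD33 (73.5 to 106 CPM) and HOXA9 (46.9 to 74.2 CPM) were present in all 21 libraries. The monocyte marker CD14 had a median of 0 CPM. The transcripts aimed at in the knockouts were not lost: HK2 lay at 14.7 to 24.8 CPM in HK2 knockout libraries and 11.1 to 69.5 CPM in wild type, and PGP at 53.2 to 83.6 CPM in PGP knockout libraries and 42.6 to 95.5 CPM in wild type. Tags from the transcript's end do not show whether a coding exon was edited, so these levels check nothing about the edit.

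In wild type cells 15 of the 43 factors were called at 6 h and 20 at 24 h, and most of the called factors fell. A gene was called at an adjusted p under 0.05 in edgeR's quasi-likelihood test, with Benjamini-Hochberg adjustment over all 11610 genes tested. At 6 h 3 factors rose and 12 fell, against 10.9% of all genes called higher and 11.1% called lower, 22% together. At 24 h 7 of 43 rose, a share near the 15.3% of all genes called higher. Another 13 fell, against 14.6% of all genes called lower, 29.8% together. The called share was 34.9% of the factors at 6 h and 46.5% at 24 h. The median log2 fold change of the 43 factors was -0.113 at 6 h, where that of all genes was 0.0156, and -0.0978 at 24 h, where it was 0.0255. EIF1 and EIF5 were higher at both times and 10 factors lower at both, and none was called in opposite directions. Both times were compared with the same 3 DMSO libraries, so the shared calls are not independent of each other. Of the 7 that rose at 24 h, the calls of EIF3C (2.02) and EEF1A1 (1.10) were each lost without any 1 of 4 libraries, the DMSO libraries and 24 h replicate 3. Without 24 h replicate 3 the values were -0.27 and 0.093. A fit of the wild type DMSO and 6 h libraries alone called 8 factors.

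By role, EIF1 and EIF5, which act at the start codon, rose at both times, and EIF1B, EIF2S3 and EEF2 rose at 24 h. The cap-binding protein EIF4E, the scaffolds EIF4G1 and EIF4G2, the eIF2 alpha subunit EIF2S1, EIF2B1, EIF4E2, EIF3B, EIF1AX, EIF5A and EIF5B were called lower at both times. Of 13 eIF3 genes, 11 were not called at 6 h and 10 not at 24 h. Calls by complex, here and below, stand beside 10.9% of all genes higher and 11.1% lower at 6 h. At 24 h these shares were 15.3% and 14.6%. No complex was tested against them. Read counts are shares of a library's total, so fewer cells in one state and less RNA per cell cannot be told apart from them.

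**Figure D1:**
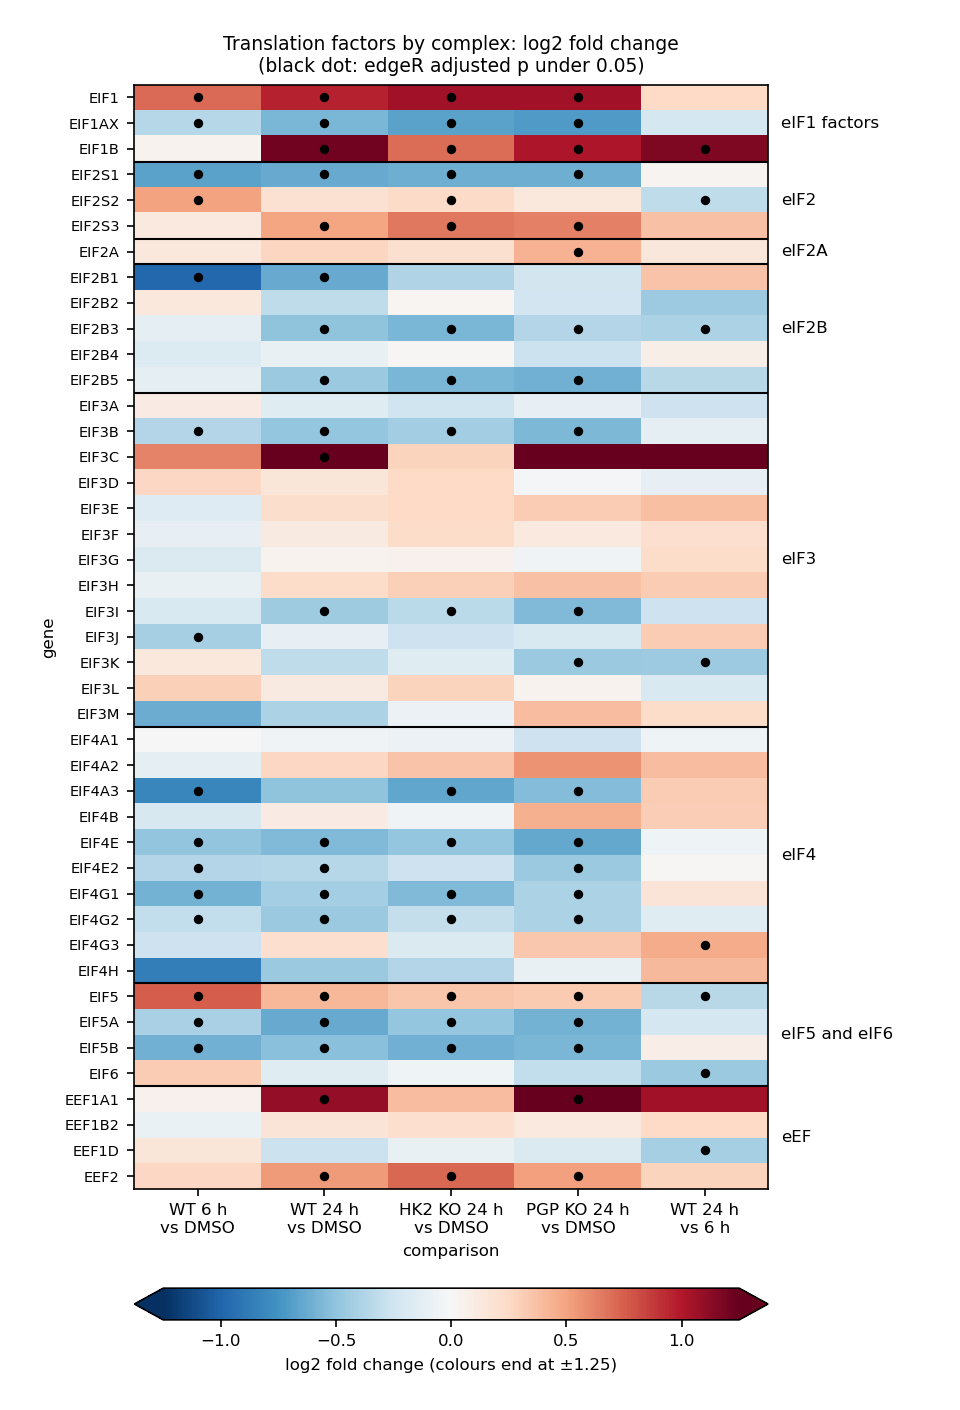
Log2 fold change of the 43 tested factors (rows, grouped by complex) in 5 comparisons (columns), with a colour scale for the size and sign and a black dot where the edgeR adjusted p was under 0.05. EIF1, EIF5 and EEF2 are red and EIF1AX, EIF2S1, EIF4E, EIF4G1 and EIF5B blue in each column of 24 h against DMSO, and most eIF3 rows carry no dot.

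The first bases of these transcripts are shown because pyrimidine-rich starts are common among translation factors. Transcripts of many ribosomal proteins and elongation factors begin with a C followed by an unbroken run of pyrimidines, a terminal oligopyrimidine or TOP start, which places their translation under MTOR and LARP1. RefSeq promoters on GRCh38.p14, from 250 bases before to 50 after the annotated start, were matched for 37 of the 44 factors. A C within 5 bases of the annotated start, followed by at least 4 pyrimidines, was present in 15 of these 37 (40.5%) and in 21.1% of 27305 promoters. In the following 30 bases (10 before and 20 from the start on) capitals mark the C and its pyrimidine run, and the first base of the transcript is the eleventh letter. The first 8 hold such a run within 5 bases of the start, among them factors that rose (EEF2, EIF2S3, EIF1) and that fell (EIF4G2, EIF4E2), and the last 4 do not. The C is the first base of the annotated transcript in EEF2, EIF2S3, EEF1A1, EIF2A and EIF3K. In EIF1 the marked run lies wholly before the annotated start. In EIF4G2 and EIF4E2 it begins 1 base after the first base.
EEF2: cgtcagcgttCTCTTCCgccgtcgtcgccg
EIF2S3: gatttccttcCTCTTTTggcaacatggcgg
EEF1A1: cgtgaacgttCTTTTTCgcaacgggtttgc
EIF2A: cgagcggtttCTCTTTCCgggacaacatgg
EIF3K: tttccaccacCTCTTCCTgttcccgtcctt
EIF1: ccgccCCTCTgccccagtcactgagccgcc
EIF4G2: tgtcggaagcaCTTCCCTaacttgcgcctg
EIF4E2: agcggaagtcaCTCCCTgaggcagtggcga
EIF5: ggcgttgttcagtcagagcgagaacattcc
EIF2S1: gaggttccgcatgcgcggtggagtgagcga
EIF4E: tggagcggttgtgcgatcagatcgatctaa
EIF5B: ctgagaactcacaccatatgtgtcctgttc

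The windows lie at chr19:3985444-3985473 (EEF2, minus strand), chrX:24054946-24054975 (EIF2S3, plus), chr6:73521013-73521042 (EEF1A1, minus), chr3:150546777-150546806 (EIF2A, plus), chr19:38619178-38619207 (EIF3K, plus) and chr17:41688875-41688904 (EIF1, plus). The others lie at chr11:10807977-10808006 (EIF4G2, minus), chr2:232550679-232550708 (EIF4E2, plus), chr14:103334227-103334256 (EIF5, plus), chr14:67360318-67360347 (EIF2S1, plus), chr4:98929114-98929143 (EIF4E, minus) and chr2:99337379-99337408 (EIF5B, plus). The remaining holders are EIF3C, EIF3D, EIF3F, EIF3J, EIF3M, EIF4A2 and EIF4B. In EIF3C, as in EIF1, the run lies wholly before the annotated start.

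Of the 15 factors with such a start, 1 rose (EIF1) and 3 fell (EIF3J, EIF4E2 and EIF4G2) at 6 h in wild type cells, with a median log2 fold change of 0.0533. Of the 21 other tested factors with a promoter, 1 rose and 9 fell, with a median of -0.257. At 24 h 5 of the 15 rose (EIF1, EIF2S3, EIF3C, EEF1A1 and EEF2) and 2 fell (EIF4E2 and EIF4G2), with a median of 0.15, against 2 higher and 11 lower of 21 (median -0.46). In the HK2 knockout 3 of the 15 rose and 1 fell (median 0.228), against 2 higher and 11 lower of 21 (median -0.378). In the PGP knockout 5 rose and 3 fell (median 0.434), against 2 higher and 11 lower (median -0.363). The 24 h calls of EEF1A1 and EIF3C were lost without replicate 3, and that of EIF2S3 without any 1 of 3 libraries. The 6 h calls of EIF3J and EIF4G2 were lost without 6 h replicate 2 (adjusted p = 0.0585 and 0.117), and that of EIF4E2 without any 1 of 5 libraries. With the C at the annotated start itself, the run was in 10 of the 37 (27.0%) and in 4.04% of promoters. At 6 h in wild type cells 0 of these rose and 0 fell, against 2 higher and 12 lower of the 26 other tested factors. At 24 h 3 rose (EIF2S3, EEF1A1 and EEF2) and 0 fell, against 4 higher and 13 lower. In the HK2 knockout 2 rose and 0 fell, against 3 and 12, and in the PGP knockout 4 rose and 1 fell, against 3 and 13. Among the PGP rises, the call of EIF2A was lost without any 1 of 4 libraries and that of EEF2 without 24 h replicate 3. These counts are a description of the annotated starts with no test, and no start was measured in these cells.

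**Figure D2:**
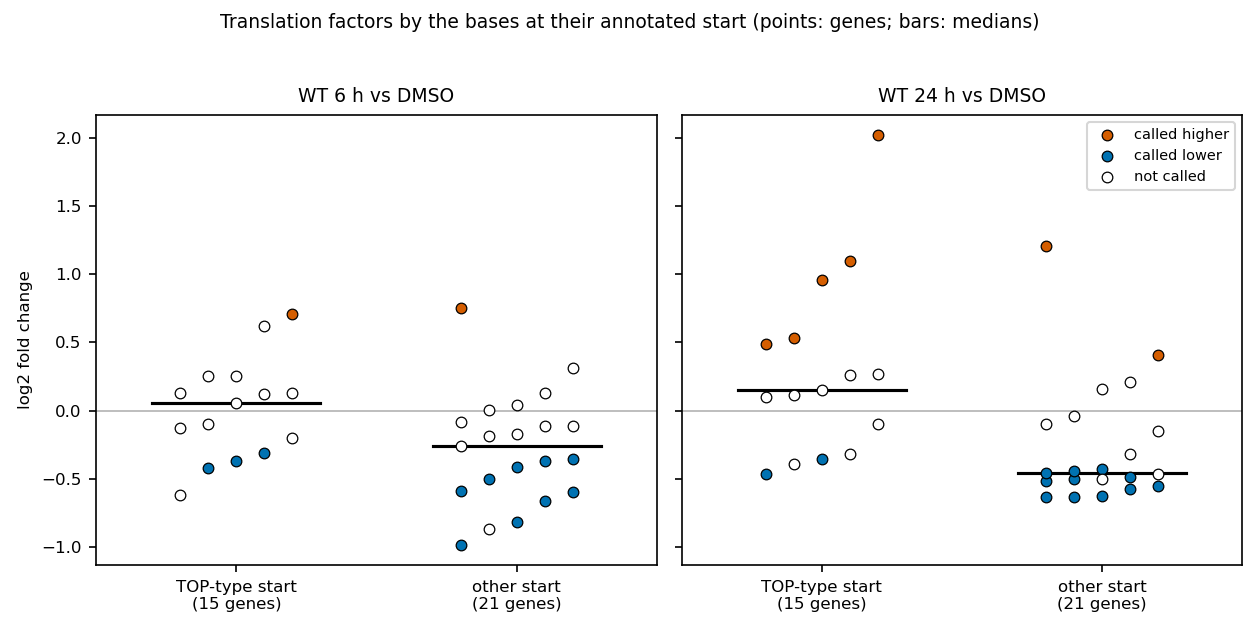
Log2 fold change in wild type cells at 6 h (left) and 24 h (right) of 15 factors with a C and pyrimidine run within 5 bases of the annotated start and 21 without (points are genes, filled where called, and bars are medians). Called-lower factors lie in both columns, 3 against 9 at 6 h and 2 against 11 at 24 h.

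Another 2 short motifs were searched on both strands of the same 300-base windows. The E-box CACGTG, a palindrome bound by MYC, MAX and the TFEB family, was in 9 of 37 factor promoters (24.3%) and 7.43% of all. EIF4E and EIF4G1, which both fell, each hold it at 2 places, and the 30-base windows are shown with the motif in capitals.
EIF4E, 225 bases before the start: ctacccatcggcCACGTGaccagtcctttt
EIF4E, 72 bases before the start: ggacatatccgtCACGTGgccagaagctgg
EIF4G1, 144 bases before the start: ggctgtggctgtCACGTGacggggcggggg
EIF4G1, 67 bases before the start: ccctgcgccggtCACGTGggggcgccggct
EIF1B, 54 bases before the start: gcgcgggacggtCACGTGggaggggccgcg

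They lie at chr4:98929341-98929370 and chr4:98929188-98929217 (EIF4E), chr3:184314450-184314479 and chr3:184314527-184314556 (EIF4G1) and chr3:40309641-40309670 (EIF1B). The other holders are EIF2B3, EIF3F, EIF3K, EIF4A3, EIF4B and EIF4H. Of the 9, EIF1B rose at 24 h in wild type cells and EIF2B3, EIF4E and EIF4G1 fell, and the 27 tested factors without the motif held 6 called higher and 10 lower. The ATF4-type element TGATGNAA was in none of the 37 windows and in 3.67% of all promoters, which says only that these letters are not in this window.

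EIF1 and EIF1B, close relatives that guard the choice of the start codon, rose on different schedules, while EIF1AX, which binds the ribosome's A site beside them, fell. Of the 3 genes, 1 rose and 1 fell at 6 h and 2 rose and 1 fell at 24 h, with median log2 fold changes of 0.04 and 0.96. EIF1 (ENSG00000173812) measured 527, 527 and 589 CPM in DMSO, 827, 847 and 1004 CPM at 6 h, and 943, 1229 and 1020.4 CPM at 24 h. Every treated library lay above every DMSO library. The log2 fold change was 0.71 ± 0.12 (SE) at 6 h (adjusted p = 0.000252) and 0.96 ± 0.12 at 24 h (adjusted p = 3.48e-06), a 1.94-fold rise. EIF1B (ENSG00000114784) stood at 77.7, 74.5 and 95.9 CPM in DMSO and 89.2, 64.8 and 101 CPM at 6 h, where the groups overlapped, and at 182, 202 and 190.3 CPM at 24 h. It rose 2.31-fold at 24 h (log2 1.21 ± 0.17, adjusted p = 1.06e-05), and 24 h also exceeded 6 h (1.17 ± 0.17, adjusted p = 4.21e-05). EIF1AX (ENSG00000173674) measured 315, 278 and 283 CPM in DMSO, 226, 241 and 218 CPM at 6 h, and 198, 195 and 195 CPM at 24 h. It fell by 0.36 ± 0.094 on the log2 scale at 6 h and by 0.57 ± 0.094 at 24 h (adjusted p = 6.38e-05), with no overlap at either time. Without DMSO replicate 1 the 6 h call was lost (-0.30, adjusted p = 0.0558). The copy EIF1AXP1 held 9.74% of the counts of the gene and its copies together, and the summed counts gave -0.37 and -0.58.

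EIF5, the GTPase activator of eIF2, had the smallest adjusted p of the factors at 6 h. EIF5 (ENSG00000100664) measured 509, 496 and 547 CPM in DMSO, 814, 991 and 811 CPM at 6 h, and 707, 713 and 644 CPM at 24 h. The 6 h libraries were the highest of the 3 wild type groups and the DMSO libraries the lowest, with no overlap. EIF5 rose 1.69-fold at 6 h (log2 0.75 ± 0.098, adjusted p = 8.76e-06) and 1.33-fold at 24 h (0.41 ± 0.098, adjusted p = 0.00252). Its level at 24 h was below that at 6 h by 0.34 ± 0.098 (adjusted p = 0.0176), a call lost without replicate 2 at 6 h (-0.24, adjusted p = 0.101) and without replicate 3 at 24 h (-0.32, adjusted p = 0.0721).

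The 3 subunits of eIF2, which sit in the complex in equal number, moved in 3 different ways, with a median of 0.12 at 6 h and 0.19 at 24 h. EIF2S1 (ENSG00000134001), the alpha subunit that stress kinases phosphorylate, measured 154, 130.0 and 138 CPM in DMSO, 95.6, 72 and 98.2 CPM at 6 h, and 90.8, 94 and 87.1 CPM at 24 h. It fell by 0.67 ± 0.11 at 6 h (adjusted p = 0.000174) and by 0.63 ± 0.11 at 24 h (adjusted p = 0.00015), and no treated library reached the DMSO range. EIF2S2 (ENSG00000125977), the beta subunit, measured 889, 863 and 885 CPM in DMSO, 1272, 1316 and 1153 CPM at 6 h, and 1017, 1003 and 991 CPM at 24 h. It rose 1.42-fold at 6 h (0.51 ± 0.088, adjusted p = 0.000239). At 24 h all 3 libraries were above all 3 DMSO libraries, but the change was smaller and was not called (0.19 ± 0.088, adjusted p = 0.107), and with library totals as the only scaling it was called (0.24, adjusted p = 0.025). EIF2S3 (ENSG00000130741), the gamma subunit that holds GTP and the initiator tRNA, measured 89, 91 and 104 CPM in DMSO, 101, 79.4 and 128 CPM at 6 h, and 129, 147 and 124 CPM at 24 h. Its groups overlapped at 6 h and not at 24 h, when it rose 1.4-fold (0.49 ± 0.14, adjusted p = 0.0114). That call was lost without DMSO replicate 1 (0.43, adjusted p = 0.0545), DMSO replicate 2 (0.44, adjusted p = 0.0508) or replicate 2 at 24 h (0.40, adjusted p = 0.0648).

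Within each library the ratio of 2 subunits' counts needs no scaling between libraries. It is not a ratio of molecules, so only its change between groups is read. EIF2S2 to EIF2S1 counts stood at 6.28 ± 0.448 (SD, n = 3) in wild type cells given DMSO, 14.4 ± 3.41 after 6 h and 11.1 ± 0.371 after 24 h. In the HK2 knockout it went from 6.33 ± 0.0624 to 11.4 ± 1.06, and in the PGP knockout from 6.73 ± 0.715 to 11.3 ± 1.14. EIF2S3 to EIF2S1 counts went from 0.678 ± 0.091 to 1.16 ± 0.13 and 1.47 ± 0.0797 in wild type cells. The knockouts went from 0.714 ± 0.0258 to 1.73 ± 0.0947 (HK2) and from 0.704 ± 0.0508 to 1.67 ± 0.326 (PGP). In all 3 genotypes every treated library lay above every DMSO library in both ratios. Both ratios share EIF2S1, already called lower in each comparison with DMSO, so their rises are not independent of that fall or of each other. At 6 h EIF2S3 itself was not called (0.12 ± 0.14, adjusted p = 0.586). A permutation of 3 against 3 libraries cannot give a two-sided p below 0.1, so no test is given. EIF2S2P4 and other copies held 7.33% of the counts of EIF2S2 and its copies together, and with them summed the 6 h value was 0.51.

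**Figure D3:**
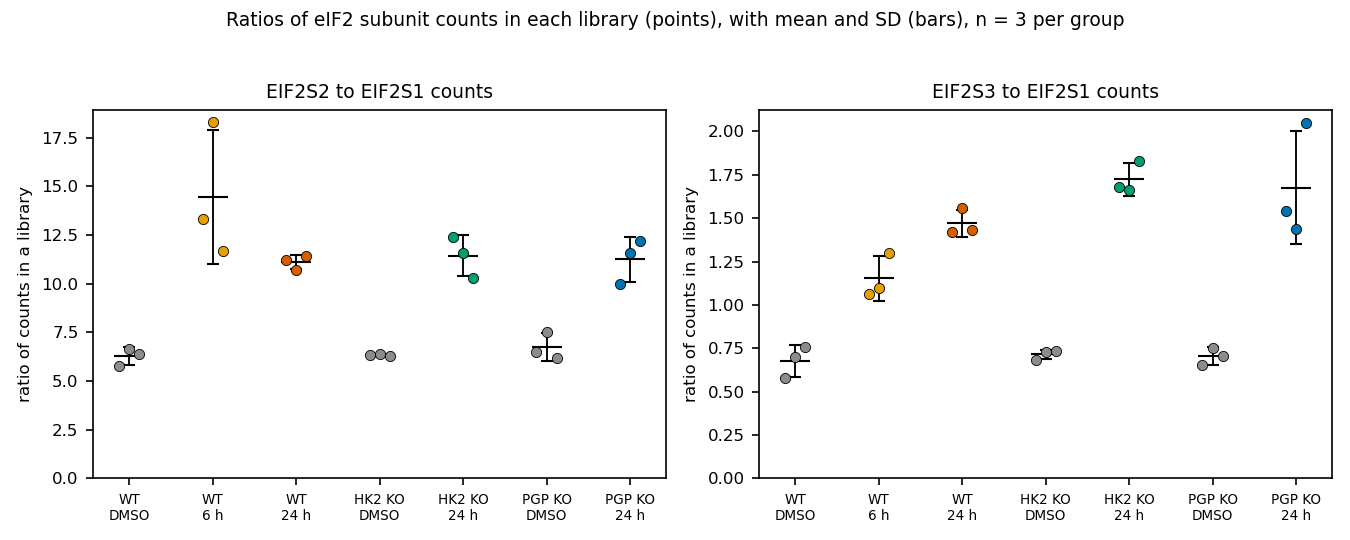
Ratio of EIF2S2 to EIF2S1 counts (left) and of EIF2S3 to EIF2S1 counts (right) in each of 21 libraries (points), with the mean and SD of each group of 3 (bars). DMSO groups lie near 6 to 7 on the left and near 0.7 on the right, and all treated groups are higher.

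EIF2A (ENSG00000144895) is not a subunit of eIF2 but a separate factor that can bring initiator tRNA to the ribosome. It measured 87.3, 92.2 and 80.1 CPM in DMSO, 105, 90.6 and 87.4 CPM at 6 h, and 105, 90.8 and 116 CPM at 24 h, with overlapping groups. It was not called in wild type cells or in the HK2 knockout (0.27 ± 0.14 and 0.20 ± 0.14 at 24 h), and was higher in the PGP knockout (0.43 ± 0.14, adjusted p = 0.0193). The PGP call was lost without PGP DMSO replicate 2 or 3 (adjusted p 0.0641 and 0.131) or 24 h replicate 1 or 2 (both 0.117).

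The exchange factor eIF2B, which recharges eIF2, had 1 of 5 subunit genes called lower at 6 h, 3 at 24 h and none higher, with medians of -0.113 and -0.46. Its regulatory alpha subunit EIF2B1 (ENSG00000111361) measured 79.8, 73.5 and 93.1 CPM in DMSO, 47, 26 and 51.6 CPM at 6 h, and 52.8, 50.2 and 56.8 CPM at 24 h. It fell at both times, by 0.98 ± 0.18 (adjusted p = 0.000459) and by 0.63 ± 0.18 (adjusted p = 0.0104), with no overlap with DMSO. EIF2B3 (ENSG00000070785), the gamma subunit, measured 53.9, 61.6 and 48.3 CPM in DMSO, 46.5, 55.4 and 49.7 CPM at 6 h, and 42.1, 36.5 and 36.9 CPM at 24 h. It fell by 0.50 ± 0.13 at 24 h (adjusted p = 0.00432). EIF2B5, the catalytic epsilon subunit, went from 78.2 ± 6.55 CPM (SD) to 72.3 ± 17 CPM at 6 h and 56.8 ± 6.28 CPM at 24 h, a fall of 0.46 ± 0.14 (SE, adjusted p = 0.0151). This call was lost without DMSO replicate 2 (-0.43, adjusted p = 0.0552) or 24 h replicate 1 (-0.41, adjusted p = 0.0681). EIF2B2 (26.5 ± 5.3 CPM in DMSO, 28.8 ± 6.71 CPM at 6 h and 21.1 ± 0.205 CPM at 24 h) and EIF2B4 (38.9 ± 2.57, 34.7 ± 7.87 and 36.4 ± 0.442 CPM) were not called.

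In the largest complex, eIF3, 2 of 13 genes fell at 6 h, and 2 fell and 1 rose at 24 h, with medians of -0.098 and 0.0481. Of all genes 11.1% fell at 6 h, and 14.6% fell and 15.3% rose at 24 h, so the eIF3 calls were few. EIF3B (ENSG00000106263), which with EIF3G and EIF3I forms a module near the mRNA entry channel, measured 250.4, 224 and 267 CPM in DMSO, 187, 203 and 186 CPM at 6 h, and 183, 174 and 174 CPM at 24 h. It fell by 0.37 ± 0.094 at 6 h and by 0.48 ± 0.095 at 24 h (adjusted p = 0.000438), and no groups overlapped with DMSO. The 6 h call was lost without DMSO replicate 3 (-0.31, adjusted p = 0.0513). EIF3I went from 266 ± 15.6 to 234 ± 20.5 and 196 ± 13.8 CPM and fell at 24 h by 0.44 ± 0.094 (adjusted p = 0.000928). EIF3G, the third of the module, was not called, at 94 ± 9.56, 82.9 ± 6.33 and 97.2 ± 8.49 CPM. EIF3J, a loosely bound subunit, was called lower at 6 h, at 536 ± 15.9, 400.4 ± 54 and 500.4 ± 30.8 CPM (-0.42 ± 0.12, adjusted p = 0.0115), and this was lost without 6 h replicate 2 (-0.32, adjusted p = 0.0585).

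Of the remaining eIF3 genes the scaffold subunit EIF3A measured 1228 ± 135 CPM in DMSO, 1322 ± 191 CPM at 6 h and 1106 ± 164 CPM at 24 h. EIF3D, which can bind caps, measured 365 ± 29, 436 ± 70.5 and 405 ± 16.4 CPM, and EIF3L 478 ± 31.2, 588 ± 139.9 and 516 ± 48.8 CPM. EIF3E measured 513 ± 73.1, 459 ± 91 and 595 ± 60.2 CPM, EIF3H 563 ± 49.9, 527 ± 136 and 658 ± 64.2 CPM, and EIF3F 114 ± 11.3, 107 ± 22.1 and 124 ± 9.86 CPM. None of these 6 was called in either wild type comparison with DMSO. EIF3K measured 547, 548 and 507 CPM in DMSO, 522, 710.0 and 519 CPM at 6 h, and 405, 494 and 384 CPM at 24 h, so that 24 h lay below both other groups. It was not called at 24 h against DMSO (-0.32 ± 0.12, adjusted p = 0.0528), yet was called lower with RLE size factors, with DESeq2 (adjusted p 0.0465 and 0.0389) and without 24 h replicate 2 (-0.45, adjusted p = 0.0168). In the PGP knockout EIF3K was called lower at 24 h (-0.47 ± 0.12, adjusted p = 0.00554), and this call held under every setting. In the HK2 knockout EIF3K was not called (-0.16 ± 0.12, adjusted p = 0.369). EIF3M, at 24.8 ± 10.9, 16.1 ± 7.92 and 19 ± 8.11 CPM, was not called, and its SDs are large beside its means. EIF3C cannot be read as a single gene: 89.0% of the counts of EIF3C and its near-identical neighbour EIF3CL were assigned to EIF3CL. Its row measured 3.08, 2.98 and 37.5 CPM at 24 h, against 2.71, 4.59 and 3.48 CPM in DMSO, and its call (2.02 ± 0.69, adjusted p = 0.0307) turned to -0.27 (adjusted p = 0.775) without 24 h replicate 3. Leaving out any 1 DMSO library also ended it, at 1.85 to 2.2 with adjusted p 0.0585 to 0.1. With EIF3CL summed the change was 0.83 ± 0.37 (adjusted p = 0.0923).

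The eIF4 group brings mRNA to the ribosome, and 5 of its 10 genes were called lower at 6 h, 4 at 24 h and none higher, with medians of -0.339 and -0.392. EIF4E (ENSG00000151247), the cap-binding protein, measured 95.2, 90.4 and 96.7 CPM in DMSO, 73.2, 62 and 64.7 CPM at 6 h, and 64.3, 60.5 and 67.7 CPM at 24 h. It fell by 0.50 ± 0.11 at 6 h (adjusted p = 0.00224) and by 0.55 ± 0.11 at 24 h (adjusted p = 0.000514). The highest treated library was 73.2 CPM and the lowest DMSO library 90.4 CPM. EIF4E2, a cap-binding relative linked to repression, measured 207, 221 and 188 CPM in DMSO, 130.2, 202 and 145 CPM at 6 h and 169.9, 156 and 155 CPM at 24 h. It was called lower at both times (-0.37 ± 0.13, adjusted p = 0.0429, and -0.36 ± 0.13, adjusted p = 0.039), but the groups overlapped at 6 h. Its 6 h call was lost without any 1 of 5 libraries, all but 6 h replicate 2 (adjusted p 0.0509 to 0.221), and the value ranged from -0.24 without 6 h replicate 1 to -0.58 without 6 h replicate 2. Its 24 h call was lost without DMSO replicate 1 or 2 or 24 h replicate 2 or 3 (adjusted p 0.0789 to 0.119). In the PGP knockout EIF4E2 was called lower at 24 h (-0.46 ± 0.13, adjusted p = 0.00808), a call that held under every setting. In the HK2 knockout it was not called (-0.26 ± 0.13, adjusted p = 0.133).

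Among the scaffolds, EIF4G1 (ENSG00000114867) measured 465, 419 and 407 CPM in DMSO, 285, 292 and 280.1 CPM at 6 h, and 368, 300.3 and 292 CPM at 24 h. It fell by 0.59 ± 0.11 at 6 h (adjusted p = 0.000472) and by 0.43 ± 0.11 at 24 h (adjusted p = 0.00472), with no overlap with DMSO. EIF4G2, a relative without the EIF4E-binding region, measured 1379, 1378 and 1481 CPM in DMSO, 1142, 1083 and 1190.3 CPM at 6 h, and 906, 1128 and 1043 CPM at 24 h. Its fall was 0.46 ± 0.11 at 24 h (adjusted p = 0.00289). At 6 h its fall of 0.31 ± 0.11 (adjusted p = 0.0481) was lost on leaving out any 1 of the 6 libraries (adjusted p 0.0574 to 0.144). EIF4G3, the third scaffold, measured 90.6, 87.4 and 84.8 CPM in DMSO, 81.5, 70.9 and 67.5 CPM at 6 h, and 109.9, 86.9 and 107 CPM at 24 h. It was not called against DMSO and was higher at 24 h than at 6 h (0.47 ± 0.15, adjusted p = 0.0306). That last call was lost without replicate 2 or 3 at 6 h or replicate 1 or 3 at 24 h (adjusted p 0.0677 to 0.133).

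Of the helicases, EIF4A1 measured 31.3 ± 0.23, 31.5 ± 7.56 and 30.4 ± 1.2 CPM, and EIF4A2 102 ± 23.4, 93.3 ± 39.5 and 122 ± 14.8 CPM, in the same order of DMSO, 6 h and 24 h. Neither was called. EIF4A1 copies held 9.7% of the summed counts. EIF4A3, which works in the exon junction complex rather than at the cap, measured 185, 179 and 189.9 CPM in DMSO, 131, 52.4 and 131 CPM at 6 h, and 117, 142 and 133 CPM at 24 h. It fell at 6 h by 0.81 ± 0.20 (adjusted p = 0.00545), and without the low library of replicate 2 by 0.49 (adjusted p = 0.00338). At 24 h it lay at -0.50 ± 0.20 and was not called (adjusted p = 0.0631). Fitted with DESeq2 it was called there (adjusted p = 0.0466). The helicase cofactors EIF4B (92.7 ± 16.2, 80.5 ± 32.1 and 99.5 ± 12.6 CPM) and EIF4H (53.4 ± 9.42, 29.1 ± 20.4 and 38.7 ± 4.97 CPM) were not called. EIF4H stood at 34.6, 6.55 and 46.1 CPM at 6 h (-0.87 ± 0.35, adjusted p = 0.0788), and was called without replicate 3 (-1.38, adjusted p = 0.0102). Without replicate 2, its low library, the value was -0.41 (adjusted p = 0.208).

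**Figure D4:**
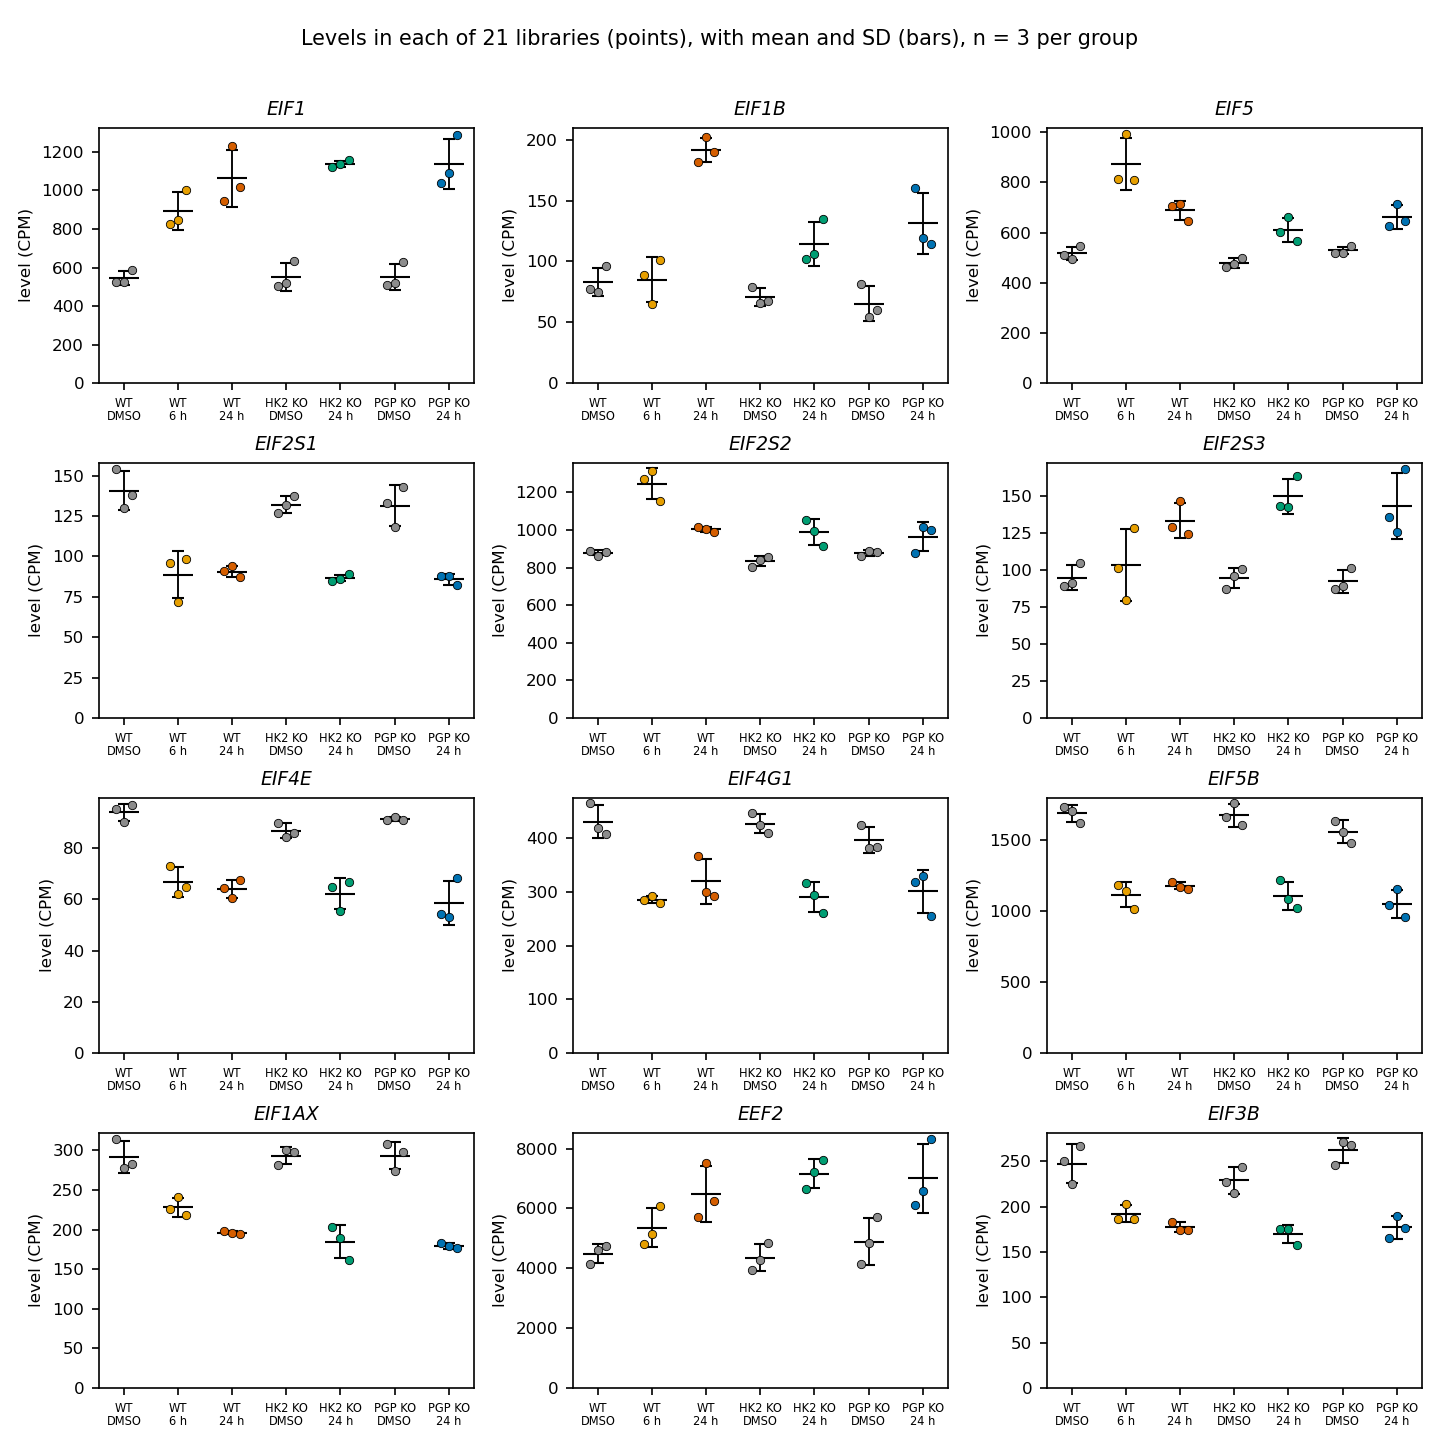
Level in CPM of 12 factors in each of 21 libraries (points), with the mean and SD of each group of 3 (bars). EIF1, EIF5 and EEF2 are higher and EIF2S1, EIF4E, EIF4G1, EIF5B, EIF1AX and EIF3B lower in each 24 h group than in its DMSO group, and the EIF1B libraries lie above DMSO at 24 h and overlap with it at 6 h.

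EIF5B and EIF5A both fell, and the 4 genes of eIF5 and eIF6 had medians of -0.0485 at 6 h and -0.334 at 24 h. EIF5B (ENSG00000158417), which joins the large subunit, measured 1729, 1704 and 1617 CPM in DMSO, 1183, 1140.0 and 1014 CPM at 6 h, and 1201, 1168 and 1156 CPM at 24 h. It fell by 0.60 ± 0.096 at 6 h (adjusted p = 0.0001) and by 0.52 ± 0.096 at 24 h (adjusted p = 0.00023), and its lowest DMSO library was 1617 CPM. EIF5A (ENSG00000132507), which carries hypusine, a modification laid down by an iron-dependent hydroxylase, and helps ribosomes past difficult stretches, measured 157, 156 and 148 CPM in DMSO, 123, 97.6 and 126 CPM at 6 h, and 93.9, 111 and 91.6 CPM at 24 h. The row fell by 0.41 ± 0.11 at 6 h (adjusted p = 0.0097) and by 0.63 ± 0.11 at 24 h (adjusted p = 0.000131). The 6 h call was lost without 6 h replicate 2 (-0.31, adjusted p = 0.051). Copies, almost all EIF5AL1, held 66.1% of the summed counts, so the row holds the smaller share. Summed, the fall at 24 h was 0.51 ± 0.14 (adjusted p = 0.00755), and at 6 h the value was -0.33 ± 0.14 and was not called (adjusted p = 0.0931). EIF6, which keeps the ribosomal subunits apart, measured 126 ± 5.94 CPM in DMSO, 157 ± 40.7 CPM at 6 h and 114 ± 6.25 CPM at 24 h and was not called against DMSO.

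Of the 4 tested elongation factors none was called at 6 h and 2 rose at 24 h, with medians of 0.103 and 0.345. EEF2 (ENSG00000167658), the translocase, measured 4132, 4598 and 4737 CPM in DMSO, 4823, 5155 and 6087 CPM at 6 h, and 5700.3, 7510.2 and 6249 CPM at 24 h. Each treated library was above each DMSO library. The rise was called at 24 h (1.44-fold, log2 0.53 ± 0.14, adjusted p = 0.00452) and not at 6 h (adjusted p = 0.188). EEF1B2, an exchange factor, measured 1292 ± 44.9, 1216 ± 174 and 1441 ± 113 CPM, and EEF1D, another, 138 ± 7.16, 153 ± 29.6 and 115 ± 15.9 CPM, and neither was called against DMSO. The copy EEF1DP1 and others held 29.0% of the counts of EEF1D and its copies together. EEF1G had 4 counts, and its copies 64, over all libraries.

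EEF1A1, the carrier of aminoacyl-tRNA, has many processed copies in the genome. Its row measured 72.3, 79.1 and 89.6 CPM in DMSO, 87.1, 64.8 and 98 CPM at 6 h, and 89.2, 85.3 and 342 CPM at 24 h. Its call at 24 h (1.10 ± 0.41, adjusted p = 0.0453) depends on replicate 3, without which it was 0.093 (adjusted p = 0.874). It was also lost without DMSO replicate 1, 2 or 3 (adjusted p 0.127, 0.11 and 0.079) and with DESeq2 (adjusted p = 0.0857). The processed copy EEF1A1P5 and others held 56.0% of the summed counts. Summed, EEF1A1 and its copies measured 213, 231 and 265 CPM in DMSO, 263, 111 and 288 CPM at 6 h, and 292, 324 and 576 CPM at 24 h (0.75 ± 0.25, adjusted p = 0.0279). In the PGP knockout the row went from 76.2, 55 and 55.1 CPM to 267, 294 and 326 CPM without overlap (2.26 ± 0.42, adjusted p = 0.000268), and the sum rose by 1.34 ± 0.26 (adjusted p = 0.000328). In the HK2 knockout the row measured 197, 90 and 155 CPM in DMSO and 95, 302 and 177 CPM at 24 h and was not called. How reads were shared between a gene and its copies is not given in the sources used here, and its part in these values was not tested.

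**Figure D5:**
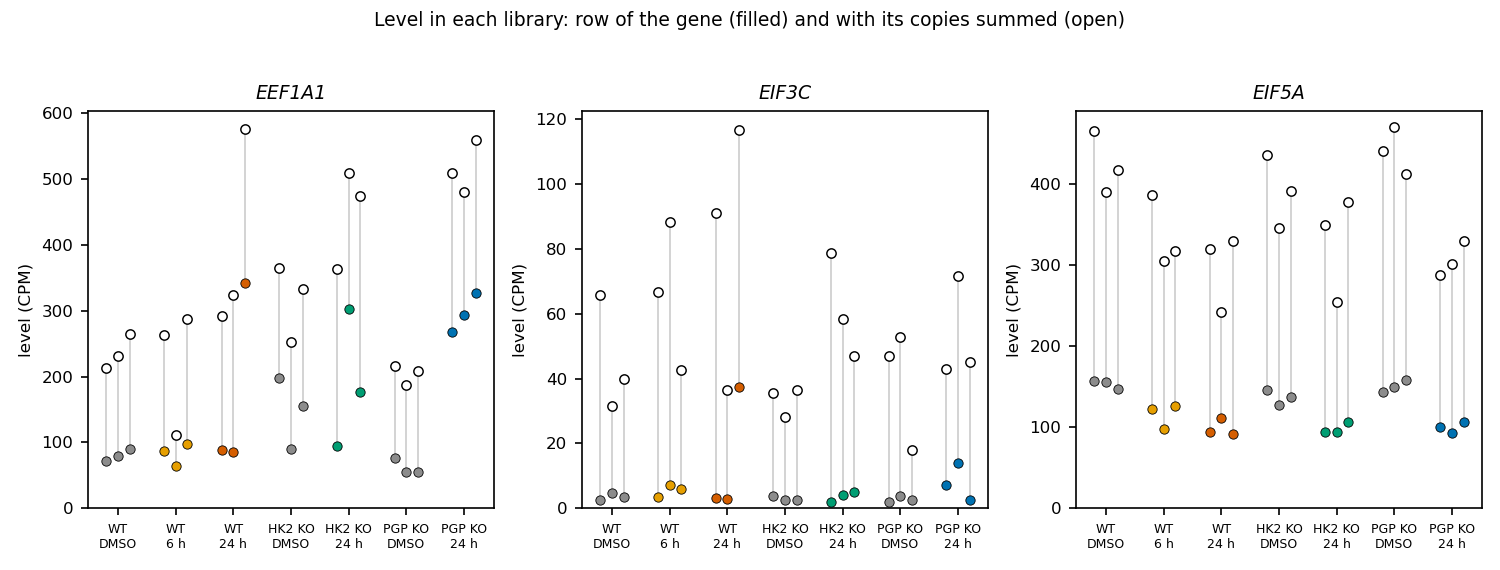
Level in CPM of EEF1A1, EIF3C and EIF5A in each of 21 libraries, measured on the row of the gene (filled points) and with its near-identical copies summed (open points). At 24 h in wild type cells replicate 3 alone carries the high EEF1A1 row (342 CPM) and EIF3C row (37.5 CPM), and over the 21 libraries 66.1% of the summed EIF5A counts and 89.0% of the summed EIF3C counts lie in the copies.

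Between 6 h and 24 h in wild type cells 8 factors (18.6%) were called, 2 higher and 6 lower, near the 16.6% of all genes called. Of all genes 8.48% were higher and 8.08% lower. EIF1B and EIF4G3 were higher. EIF2S2 (-0.31 ± 0.088, adjusted p = 0.0158), EIF3K (-0.45 ± 0.12, adjusted p = 0.014), EIF5, EIF2B3 (-0.39), EIF6 (-0.46) and EEF1D (-0.42) were lower. EIF1B alone was called under every setting. Without 6 h replicate 2 calls of EIF2S2, EIF3K, EIF5, EIF2B3, EIF6, EEF1D and EIF4G3 were all lost (adjusted p 0.052, 0.104, 0.101, 0.125, 0.291, 0.213 and 0.0677), and 3 factors were called. The values themselves shrank to -0.28 for EIF3K, -0.23 for EIF6 and -0.25 for EEF1D. Without 24 h replicate 3, 2 were called. With library totals as the only scaling, 3 were higher and 3 lower.

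The 24 h response was then compared across genotypes. For the HK2 knockout 18 factors were called, 6 higher and 12 lower, against 15.9% and 13.5% of all genes, 29.4% together. In the PGP knockout 21 were called, 7 higher and 14 lower, against 16.1% and 15.4%, 31.5% together. In both knockouts the share of factors that rose was near that of all genes. With library totals as the only scaling the PGP split was 10 higher and 12 lower. Higher in all 3 genotypes were 5 of 43 (EIF1, EIF1B, EIF2S3, EIF5 and EEF2), a share near the 9.91% of all genes. Lower in all 3 were 11 of 43 (EIF1AX, EIF2S1, EIF2B3, EIF2B5, EIF3B, EIF3I, EIF4E, EIF4G1, EIF4G2, EIF5A and EIF5B), where 9.66% of all genes were. Each genotype has its own DMSO libraries, and no factor was called in opposite directions in any pair of genotypes. The same was true of nearly all genes, since only 2 of 11610 were so called.

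EIF1 had the smallest adjusted p in each knockout. It went from 502, 519 and 631 CPM to 1124, 1136 and 1156 CPM in the HK2 knockout (1.05 ± 0.12, adjusted p = 1.4e-06), and from 507, 518 and 627 CPM to 1037, 1092 and 1286 CPM in the PGP knockout (1.05 ± 0.12, adjusted p = 1.23e-06). Both rises were free of overlap. EIF1AX fell from 281, 301 and 299 CPM to 203, 189.6 and 162 CPM in the HK2 knockout (-0.67 ± 0.094) and from 308, 274 and 298 CPM to 183, 179 and 176 CPM in the PGP knockout (-0.71 ± 0.095, adjusted p = 5.36e-06). EIF5B fell from 1656, 1755 and 1599.7 CPM to 1214, 1080.3 and 1019 CPM in the HK2 knockout (-0.60 ± 0.096, adjusted p = 5.81e-05), and by 0.57 ± 0.096 in the PGP knockout. EIF3B fell from 246, 271 and 268 CPM to 165, 189 and 177 CPM in the PGP knockout (-0.56 ± 0.095, adjusted p = 8.25e-05) and by 0.43 ± 0.095 in the HK2 knockout.

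EEF2 rose by 0.72 ± 0.14 (adjusted p = 0.000366) in the HK2 knockout and by 0.52 ± 0.14 (adjusted p = 0.00538) in the PGP knockout, the latter not called without PGP 24 h replicate 3 (0.36, adjusted p = 0.0581). EIF2S1 fell by 0.61 ± 0.11 in each, and EIF4E by 0.48 ± 0.11 (HK2) and 0.64 ± 0.11 (PGP). EIF2S3 rose by 0.66 ± 0.14 (HK2, adjusted p = 0.00116) and 0.63 ± 0.14 (PGP, adjusted p = 0.00162), and in both knockouts the call held under every setting. EIF2B1 was not called in either knockout, at 75.4 ± 4.14 and 58 ± 9.76 CPM (HK2) and 63.8 ± 3.54 and 54.3 ± 10 CPM (PGP) in DMSO and at 24 h. In the HK2 knockout it was called lower with a fit of those groups alone (-0.38, adjusted p = 0.039).

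Some knockout calls depended on 1 library. In the HK2 knockout the calls of EIF2S2 (0.24, adjusted p = 0.0418) and EIF4G2 (-0.30, adjusted p = 0.0471) were lost without any 1 of 6 and any 1 of 4 libraries (adjusted p 0.0502 to 0.184 and 0.0878 to 0.146). The 4 libraries were DMSO replicates 2 and 3 and 24 h replicates 1 and 2. EIF5 (0.35) was lost there without DMSO replicate 1 (0.31, adjusted p = 0.0512) or 24 h replicate 2 (0.29, adjusted p = 0.0536), and EIF4A3 (-0.65) without 24 h replicate 2 (-0.56, adjusted p = 0.0768). EIF5A (-0.48) was not called there with its copies summed (-0.26, adjusted p = 0.18). In the PGP knockout EIF5 (0.33) was lost without DMSO replicate 1 (0.29, adjusted p = 0.0591) or 24 h replicate 2 (0.25, adjusted p = 0.101). EIF2B3 (-0.36, adjusted p = 0.035) was lost there without DMSO replicate 1 or 2 or 24 h replicate 2 or 3 (adjusted p 0.0611 to 0.0977), and EIF4A3 (-0.54, adjusted p = 0.0418) without any library but 24 h replicate 3 (adjusted p 0.0583 to 0.122). The main fit did not pair libraries. In the PGP knockout the replicate block, an alternative that groups same-numbered libraries, called 10 factors higher and 14 lower. It called EIF3H (0.36, adjusted p = 0.0179), EIF4A2 (0.56, adjusted p = 0.0133) and EIF4G3 (0.34, adjusted p = 0.0375) in addition.

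The knockouts were also set against wild type cells directly. In DMSO no factor was called by edgeR in either knockout, where 0.00861% of all genes were called for HK2 and 0% for PGP. At an unadjusted p under 0.05 there was 1 factor for HK2, EEF1A1 (0.87 ± 0.41, adjusted p = 0.927, no overlap), and 2 for PGP, EIF3M (-0.93 ± 0.42) and EIF4B (-0.48 ± 0.23), both with adjusted p = 0.879. DESeq2 called no factor and had 0 and 1 at that level. Of 43 differences, 42 lay within 0.5 (log2) in each knockout, with a median SE of 0.135. Without the filter on low counts EEF1A1 was called for HK2 (0.86, adjusted p = 5.1e-07), while with its copies summed it was 0.42 ± 0.25 (adjusted p = 1.0). With no filter EIF3M was called for PGP (-0.96, adjusted p = 0.00295).

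The difference between the 24 h response of a knockout and that of wild type cells was tested as an interaction. Neither edgeR nor DESeq2 called a factor, and 0% of all genes were called by edgeR in either test. At an unadjusted p under 0.05 each tool had 1 factor for HK2 and 0 for PGP. For HK2 the edgeR factor was EIF1B, whose 24 h change in the knockout less that in wild type cells was -0.51 ± 0.24 (adjusted p = 1.0). EIF1B went from 79.3, 65.9 and 67.3 CPM to 102, 106 and 135 CPM there, and from 81.3, 54.6 and 59.7 CPM to 160.4, 119 and 114 CPM in the PGP knockout. EEF1A1 for PGP lay at 1.16 ± 0.58 (adjusted p = 1.0), and was called without the filter on low counts (1.18, adjusted p = 3.22e-06). With its copies summed it was 0.59 ± 0.36 (adjusted p = 1.0). In each test 40 of 43 differences lay within 0.5, with a median SE of 0.191, so differences of that size in a single factor were not resolved.

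The neighbouring genes of the pathway were read from 6 lists, of which 58 of 59 genes were in the table. The counts below stand beside 10.9% of all genes called higher and 11.1% lower at 6 h, 22% together. At 24 h 15.3% of all genes were higher and 14.6% lower, 29.8% together. No list was tested against these shares. Among regulators of eIF2 and of cap binding, 15 were tested: 3 rose and 1 fell at 6 h, and 4 rose and 1 fell at 24 h. PPP1R15A, which directs the phosphatase that reverses eIF2 phosphorylation, measured 34.9, 27.1 and 34.3 CPM in DMSO, 122, 78.8 and 129 CPM at 6 h, and 92.9, 95.2 and 94.5 CPM at 24 h. It rose by 1.77 ± 0.15 (adjusted p = 3.87e-08) and 1.55 ± 0.15 (adjusted p = 1.01e-07). Of the 4 eIF2 kinases, EIF2AK2, which senses double-stranded RNA, rose at 24 h from 48.9, 48.6 and 47.3 CPM to 247, 116 and 127 CPM (1.76 ± 0.32, adjusted p = 0.000216). EIF2AK3, the kinase of the endoplasmic reticulum, rose from 7.39 ± 0.799 to 15 ± 1.35 CPM (1.02 ± 0.22, adjusted p = 0.000962). EIF2AK1, the heme-regulated kinase, at 159 ± 6.12 and 172 ± 15.1 CPM, and EIF2AK4, the sensor of uncharged tRNA, at 56.8 ± 5.44 and 66.9 ± 1.29 CPM, were not called at 24 h. PDCD4, which binds and blocks EIF4A, rose at 6 h (0.71 ± 0.17, adjusted p = 0.00422).

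Of 11 genes for alternative initiation, release and recycling, 1 rose and 3 fell at 6 h, and 3 rose and 3 fell at 24 h. ABCE1, the iron-sulfur protein that splits ribosomes after termination, fell at 24 h by 0.55 ± 0.12 (adjusted p = 0.00121), and the release factor ETF1 fell by 0.54 ± 0.12 (adjusted p = 0.00093). TPT1, a TOP transcript, rose by 0.51 ± 0.095 (adjusted p = 0.00026). Of 8 hypusine and diphthamide genes, DPH2, an iron-sulfur subunit of the enzyme that begins diphthamide on EEF2, went from 53.2 ± 4.14 CPM to 28.2 ± 4.43 CPM at 6 h and 31.2 ± 4.44 CPM at 24 h (-0.92 ± 0.14, adjusted p = 4.18e-05, and -0.77 ± 0.13, adjusted p = 0.000123). It was the only one of its list called at 6 h, and at 24 h DPH5 was called higher beside it.

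Of 5 tested methyltransferases of elongation factors, 3 fell at 24 h, among them EEF2KMT, which acts on EEF2 (-1.04 ± 0.31 at 24 h, adjusted p = 0.0128), and METTL13, which acts on EEF1A1 (-0.57 ± 0.15, adjusted p = 0.00483). At 6 h these 2 genes were also called lower, and each 6 h call was lost without DMSO replicate 1 or 3 or 6 h replicate 1 or 2 (adjusted p 0.0574 to 0.103 for EEF2KMT and 0.0828 to 0.168 for METTL13). Of 9 mitochondrial translation factors, 1 rose and 1 fell at 6 h and 2 fell at 24 h: GFM1 (-0.63 ± 0.12, adjusted p = 0.000308) and TUFM (-0.55 ± 0.11, adjusted p = 0.000773), the mitochondrial counterparts of EEF2 and EEF1A1. Of 4 poly(A)-binding genes, none was called at 6 h and PABPC1 rose at 24 h (0.47 ± 0.14, adjusted p = 0.0107), a call lost without DMSO replicate 2 or 24 h replicate 1 (adjusted p 0.0615 to 0.0877). The 24 h call of DPH5 was lost without any 1 of 5 libraries, all but 24 h replicate 3 (adjusted p 0.0596 to 0.171). Over the 6 lists, 3 of 13 calls at 6 h (DPH2, PDCD4 and PPP1R15A) and 12 of 19 at 24 h held under every alternative.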

How the data were processed

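The authors deposited whole-number read counts, 1 row per Ensembl gene, from QuantSeq libraries, which tag the 3′ end of each transcript. The submitters' processing notes name HTSeq for counting, HISAT2 for alignment, bcl2fastq 2.20.0.422 and the build hg19. The annotation and strand setting are not given in the sources used here, so overlapping and antisense genes are uncertain. Symbols matched 51661 of 54042 identifiers.

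All 21 libraries entered 1 fit of edgeR's quasi-likelihood test (edgeR 4.0.16, R 4.3.3), with TMM size factors, filterByExpr (minimum count 10, minimum total 15) and Benjamini-Hochberg adjustment over 11610 genes. The SE is the log2 fold change divided by the root of F, levels are CPM on TMM-scaled totals as mean ± SD, and n = 3. The code was tested on simulated data. Members and lists were chosen with earlier results of these data known. All 44 members are named, with values per library for those of smallest adjusted p, and at most 3 called genes per pathway list and time, with the uncalled eIF2 kinases added after their values were seen.

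The alternatives tried were DESeq2 1.42.0, RLE size factors, scaling by library totals only, keeping low-count genes, fitting just the groups compared, blocking on replicate number, leaving out each library, and (added after the data were seen) summing copies into their gene. In the PGP knockout, for 24 h against DMSO, deviations of same-numbered libraries correlated at 0.243, 0.164 and 0.247, a hint of pairing from the data alone. Only the fit blocking on replicate number used the numbers. The main fit, and so the main PGP calls, used no pairing.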

Additional observations from a re-analysis of the deposited data

How the results depend on the processing

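Of the calls against DMSO, those held under every alternative were 8 of 15 at 6 h and 15 of 20 at 24 h in wild type cells, 13 of 18 in the HK2 knockout and 16 of 21 in the PGP knockout, and 1 of 8 between 24 h and 6 h. A fit of the compared groups alone called 8 factors and 1212 genes at 6 h and 1 factor and 749 genes between 24 h and 6 h. Leaving out 1 library gave 2 to 12 factors and 1271 to 2220 genes there, and the replicate block gave 16 factors. In the main fit the numbers were not taken to pair libraries in any comparison. In wild type cells at 24 h each library correlated best with its own number (0.166, 0.0504 and 0.236), a hint from the data alone. For HK2 against wild type in DMSO the genes called were 59 with no low-count filter, 19 with the replicate block, 17 with the compared groups alone, 23 with DESeq2 and 0 to 8 without 1 library. For PGP they were 96 with no filter, 2 with the groups alone and 5 with DESeq2. For the difference in response they were 17 (HK2) and 18 (PGP) with no filter, and 1 (PGP) with the groups alone. With no filter 1 factor was called for HK2 in DMSO, 1 for PGP in DMSO and 1 for the PGP difference. EIF3C at 24 h (2.02) ranged from -0.27, without 24 h replicate 3, to 2.49 on leaving out 1 library. The smaller fits held fewer samples, and causes were not tested. With library totals alone 2044 genes rose and 1456 fell at 24 h in wild type cells, and 2222 and 1464 in the PGP knockout, where the median was 0.112. EEF1G (4 counts over 21 libraries) had too few counts to be tested, and the reason for so few was not tested. EIF3M had 2060 counts.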
